A study of Mus musculus with 102 samples.

Results

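The regions described here are the poised enhancers of mouse embryonic stem (ES) cells at which some histone H3 lysine 27 acetylation (H3K27ac) was listed, but below the level at which the authors placed a region in their list of active enhancers. They were chosen by position: every region of the deposited poised list that also had an H3K27ac value in the deposited region table was taken. This gave 4722 of the 19567 poised regions (24.1%), and the other 14845 poised regions, with no H3K27ac value, served as the comparison. The same table holds 12492 active enhancers, 41819 regions with H3K4me1 and without H3K4me3, and 67697 regions in all.

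Monomethylation of H3 lysine 4 (H3K4me1) marks enhancers, and in mammals it is placed there mainly by the methyltransferases MLL3 and MLL4. H3K27ac, written by the acetyltransferases p300 and CBP, marks enhancers that are in use. An enhancer with H3K4me1 and little or no H3K27ac is called primed or poised, and in ES cells such elements often lie near genes that are switched on later in development. The proteins mapped in this study are remodellers, coactivators, histone chaperones, cohesin and splicing factors, which act on nucleosomes, on the contact between enhancer and promoter, or on the nascent transcript.

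Chromatin immunoprecipitation with sequencing (ChIP-seq) was used in the study to relate chromatin proteins at enhancers to H3K4me1. Its labels describe 102 libraries in 49 groups. The R1 ES cells carry a double catalytic-dead MLL3/4 genotype in one group and are wild type in the other, both of the 129SV strain and grown on feeder cells, with 2 libraries for each H3K4 mark and genotype. The 129/Ola ES cells, with no genotype label, gave 45 libraries, among them 14 factors with 2 libraries, BAF155 and SMC3 with 3, SSRP1 with 1, H3K27ac with 2 and H3K4me1 with 3, and they were passaged off feeders before harvest. The tables hold 1 value per factor and region and 1 per mark and R1 genotype, so the spread between libraries and the depth are unknown. No difference below has a replicate check, intervals cover counting error over regions or peaks only, and regions are not replicates of a condition. Nothing in the labels says that libraries came from separate cultures, and ES cell marker genes could not be looked up because no annotation of the mouse build mm9, which the files use, was used here.

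A factor is listed at a region when its log2 enrichment is at least that of a fold of 1.5, and a factor that is not listed lies below this limit or was not measured there. The H3K27ac values chose the members and are given only to describe them. They ran from a log2 enrichment of 0.59 to just under 1, with a median of 0.87 and quartiles of 0.79 and 0.94. This range, between a fold of 1.5 and the fold of 2 at which the active list begins, is set by the choice of members and is no check of their label.

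The members nearest the upper limit lay at chr7:146070357-146071586 with 5 factors, at chr7:52478473-52478838 with SRSF2 at a log2 enrichment of 0.87 and SSRP1 at 1.22, and at chr19:45391915-45393419 with 5 factors. Their H3K27ac log2 enrichments were 0.99997, 0.99989 and 0.99989. Just outside the limit were the active regions chr11:8425985-8427048 with 4 factors, chr7:121222964-121223341 with 3 and chr11:106820476-106820816 with 9, at 1.00001, 1.00004 and 1.00015. The regions on either side of the limit thus hardly differed in H3K27ac. The members with the least H3K27ac, at 0.59 to 0.60, were chr3:10286660-10286940 and chr2:172759266-172761361 with 6 factors each and chr17:87124665-87126533 with PHRF1 and SRSF2. Each end of the H3K27ac range thus included a member with only 2 factors.

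Members were wider than the other poised regions. Their median width was 641.5 bp (quartiles 310 and 1394 bp), against 346 bp (250 and 693 bp) at poised regions without listed H3K27ac. Active enhancers, at 659 bp, were about as wide as the members. Of the narrowest 10% of all poised regions, with a median width of 210 bp, 13.3% were members, and of the widest 10%, with a median of 2353.5 bp, 48.7% were. Within the members, width went with fewer factors (Spearman's rho -0.23 over 4722 regions) and was unrelated to the H3K27ac value (rho 0.0026). Because width bears on how many factors are listed, the difference in share of each factor is also given after both sets were brought to the same width distribution, called width-standardised.

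Members carried more of the 17 factors than the other poised regions. On average 4.18 factors were listed (SE over regions 0.0371, SD 2.55) at members and 3.22 (SE 0.0190, SD 2.31) at poised regions without listed H3K27ac, a difference of 0.96 factors (0.88 to 1.04). Active enhancers averaged 5.41, so the members lay between the other poised regions and the active list. Only 1 factor was listed at 13.9% of members and 27.2% of the others, 6 or more at 27.7% and 15.6%, and 10 or more at 3.68% and 2.01%. The mean was higher at members on 20 of 20 chromosomes and in each of the 10 width classes, and the width-standardised means were 4.39 and 3.14. Counts of chromosomes here and below include the X chromosome, which held only 3 members. When a factor was counted only at a log2 enrichment of 1 or more, the means were 1.23 and 1.13, a difference of 0.098 factors, and 1.55 and 1.06 with width standardised as well. The larger number of factors was therefore made up mostly of factors listed below a fold of 2.

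The lists were not independent of the factors. At the 9760 regions with H3K4me1, without H3K4me3 and outside both lists, none of 12 factors was listed, while 14 members and 46 other poised regions had none of these 12. The other 5 factors, BAF155, RUVBL1, RUVBL2, SAP18 and SSRP1, are not named in the deposited lists. Of these 5 all were listed more often at members, with a mean difference of 7.59 points in the share of regions, and of the 12 it was 11, with a mean difference of 4.82 points. The first mean includes SSRP1, at 17.6 points from a single library, and the second WSTF, at -6.02 points. BAF155, RUVBL1, RUVBL2 and SAP18 differed by 2.66, 3.79, 5.26 and 8.65 points. The 2 means thus do not show a larger difference at factors not named in the lists. Without the lists, over all H3K4me1 regions with H3K27ac listed below a fold of 2 against those with none listed, the means were 3.56 and 2.17 factors.

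**Figure D1:**
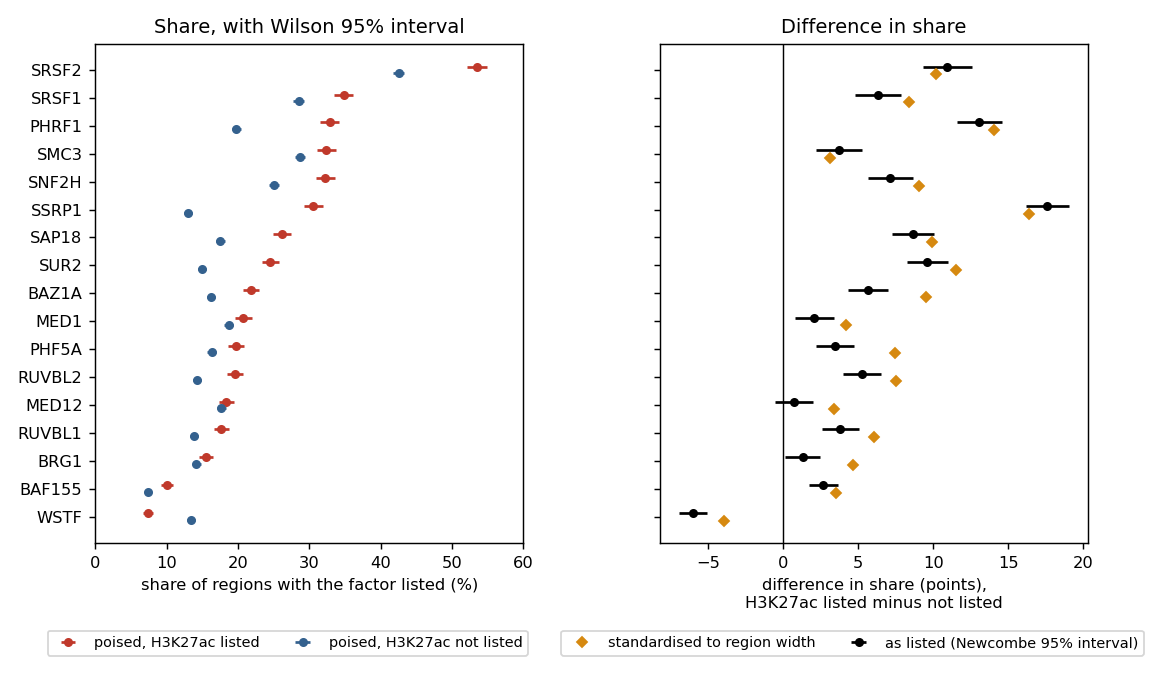
Share of poised regions at which each of the 17 factors was listed (left, percent, Wilson 95% intervals) and the difference between the sets in points (right, Newcombe 95% intervals, and diamonds for the width-standardised difference), at 4722 regions with and 14845 without listed H3K27ac. The points of 16 factors lie right of 0, and WSTF lies left of it at -6.02 points.

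Taken factor by factor, 16 of 17 were listed more often at members and WSTF less often, as the plot of shares by factor shows. The interval of the difference lay above 0 for 15 factors and crossed 0 for MED12. For 16 factors the share at members lay between those at the other poised regions and at active enhancers. With a factor counted only at a log2 enrichment of 1 or more, 12 of 17 were higher at members, and the interval lay above 0 for 7 factors, across 0 for 7 and below 0 for 3. With width standardised at this limit, 16 of 17 were again higher.

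SSRP1, part of the FACT histone chaperone, which takes apart and rebuilds nucleosomes ahead of and behind polymerases, differed most. It was listed at 30.5% of members (29.2 to 31.9) and 12.9% of the other poised regions (12.4 to 13.5), 2.36 times as often, a difference of 17.6 points (16.2 to 19.02). The width-standardised difference was 16.4 points, and the share was higher at members on 19 of 20 chromosomes. At a log2 enrichment of 1 or more SSRP1 stood at 12.2% and 6.51%. SSRP1 has a single library, and the difference in factors per region was 0.78 without it.

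PHRF1, a ubiquitin ligase with PHD and RING domains, came next, at 32.8% of members and 19.8% of the others, a difference of 13.1 points (11.6 to 14.6). SAP18, a protein found with the SIN3 deacetylase complex and with splicing-associated complexes, was listed at 26.2% and 17.5%. Both differences were slightly larger with width standardised, at 14.03 and 9.93 points.

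Of the splicing factors, SRSF2 and SRSF1 were the most frequent of all factors at members. SRSF2, a serine/arginine-rich protein that binds exonic enhancer sequences in RNA, was listed at 53.5% of members and 42.5% of the others, higher on 20 of 20 chromosomes, with a width-standardised difference of 10.2 points. It was the only factor listed at most of the members. At a log2 enrichment of 1 or more, the SRSF2 difference was 1.88 points (0.72 to 3.07), against 10.9 points as listed. SRSF1, of the same family, was listed at 34.8% and 28.5%, and PHF5A, a subunit of the SF3b complex of the U2 particle, at 19.8% and 16.3%. The SRSF1 difference of 6.29 points was 8.36 points with width standardised. For PHF5A the difference of 3.45 points became 7.46 points with width standardised, and the members with PHF5A had a median width of 381 bp. At a log2 enrichment of 1 or more, SRSF1 stood at 10.89% and 10.95% and PHF5A differed by 0.24 points (-0.47 to 1.01), so the interval crossed 0 for both at that limit. SRSF2 was listed at 55.3% of members with SRSF1 and 52.5% of members without it, and PHF5A at 24.2% and 17.4%.

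Of the Mediator subunits, which link enhancer-bound activators to RNA polymerase II, SUR2 (also called MED23) differed more than MED1 and MED12. SUR2 was listed at 24.5% of members and 15.0% of the others (difference 9.58 points, 8.24 to 11.0). MED1 stood at 20.8% and 18.7% (2.06 points, 0.76 to 3.39) and MED12 at 18.4% and 17.7% (0.69 points, -0.55 to 1.97). MED12 was higher at members on only 10 of 20 chromosomes. Width-standardised differences were 11.5, 4.20 and 3.40 points. At a log2 enrichment of 1 or more, SUR2 differed by 1.73 points (0.95 to 2.56). There MED1 was at 4.89% and 5.72% and MED12 at 5.06% and 5.87%, so MED1 and MED12 both turned to the other direction. With width standardised at that limit as well, both were higher at members again, by 1.41 and 1.38 points. Mediator subunits shared regions only in part: SUR2 was listed at 33.0% of members with MED1 and 22.3% without it.

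Among the ATP-dependent remodellers, SNF2H, the ATPase of the ISWI complexes, was listed at 32.3% of members and 25.1% of the others. BAZ1A (ACF1), its partner in the ACF complex, stood at 21.8% and 16.2%. The difference of SNF2H, 7.14 points, was 9.04 points with width standardised, and that of BAZ1A, 5.62 points, was 9.53. At a log2 enrichment of 1 or more these differences were 1.19 points (0.30 to 2.14) and 1.20 points (0.46 to 1.98). BAZ1A was listed at 28.9% of members with SNF2H and 18.4% of members without it. BAZ1A was thus more frequent where SNF2H was listed, as it was in the other poised regions, at 24.0% and 13.6%.

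BRG1, the ATPase of the BAF complex in ES cells, was nearly as frequent in both sets, at 15.5% and 14.2% (1.29 points, 0.13 to 2.48), and at 6.01% and 5.98% at a log2 enrichment of 1 or more. With width standardised the BRG1 difference was 4.64 points. BAF155, a core subunit of the same complex, was listed at 10.04% and 7.38%, a difference of 2.66 points that was 3.55 with width standardised. RUVBL1 and RUVBL2, paired ATPases of the INO80 and TIP60 complexes, stood at 17.7% and 13.9%, and at 19.5% and 14.3%. Their differences of 3.79 and 5.26 points were 6.04 and 7.55 points with width standardised. At a log2 enrichment of 1 or more RUVBL1 was at 4.17% and 4.28% and RUVBL2 at 3.49% and 3.33%, and BAF155 at 2.29% and 2.26%, with intervals of the difference across 0 for each. Partners again overlapped in part, with RUVBL2 at 33.9% of members with RUVBL1 and 16.5% without it, and BAF155 at 17.1% of members with BRG1 and 8.74% without it.

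SMC3, a core subunit of the cohesin ring that shapes chromatin loops, was listed at 32.4% of members and 28.7% of the others, a difference of 3.69 points (2.18 to 5.22). With width standardised it was 3.11 points, and at a log2 enrichment of 1 or more 0.64 points (-0.35 to 1.66). SMC3 was the fourth most frequent factor at members, and its width-standardised difference was the smallest of the 16 factors listed more often there.

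WSTF (BAZ1B), the partner of SNF2H in the WICH complex, was the exception. It was listed at 7.35% of members (347 regions) and 13.4% of the others (1984 regions), a difference of -6.02 points (-6.92 to -5.07). The share was lower at members on 20 of 20 chromosomes and the difference was -3.92 points with width standardised, -4.66 at a log2 enrichment of 1 or more and -2.67 over all H3K4me1 regions without the lists. Within the poised list WSTF, unlike BAZ1A, showed almost no tie to SNF2H: it was listed at 7.49% of members with SNF2H and 7.28% without it. This was not particular to members, since at the other poised regions WSTF stood at 11.9% with SNF2H and 13.9% without it. SNF2H, BAZ1A and WSTF are all among the 12 factors named in the lists. Nearly every poised region has at least 1 of the 12, which by itself lowers such ties. Ties outside the lists were not computed, so these shares only describe the poised list.

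The members with WSTF also differed from the other poised regions with WSTF. They carried 4.36 other factors on average, against 2.72 at poised regions without listed H3K27ac that had WSTF. Regions without WSTF also had more factors at members, with means of 4.08 and 3.14. WSTF was the sole factor at 8.07% of its regions among members and at 21.9% of its regions among the others. A lower share at members was not particular to WSTF, since regions without WSTF had a sole factor at 14.4% among members and 28.0% among the others, and SRSF2 was alone at 7.80% and 15.8% of its regions. Such shares of sole factors also depend on the make-up of the lists. The regions with WSTF were narrow in both sets, with median widths of 356 bp at members and 289 bp at the others. Its level where listed was the highest of the 17 factors, a median log2 enrichment of 1.20 at members and 1.24 at the others.

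**Figure D2:**
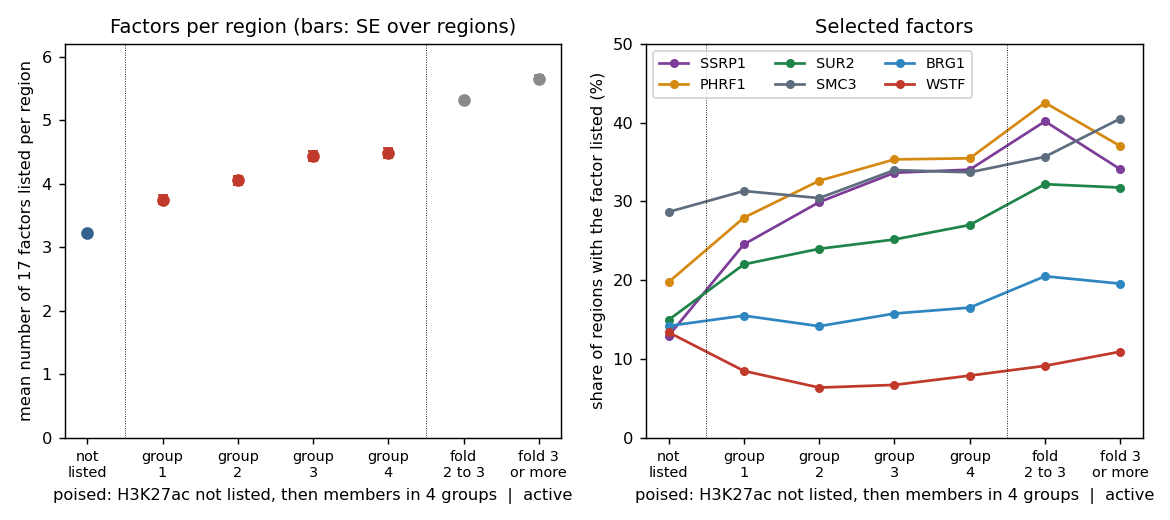
Mean number of factors listed per region (left, bars are the SE over regions) and the share of regions with 6 of the factors (right, percent), in poised regions with no listed H3K27ac, in 4 equal groups of the members from low to high H3K27ac and in active enhancers at an H3K27ac fold of 2 to 3 and of 3 or more. The mean number is 3.22 where H3K27ac is not listed and 5.65 at the highest fold, while the WSTF share is lowest, at 6.36%, in group 2 of the members.

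The members were also described along the H3K27ac values that chose them, in the plot along H3K27ac. From the lowest to the highest of 4 equal groups by H3K27ac the mean number of factors was 3.75, 4.05, 4.43 and 4.48, against 5.32 at active enhancers with a fold of 2 to 3. The median width was similar across the 4 groups, from 622 to 654 bp. Over the members Spearman's rho of H3K27ac with the number of factors was 0.12, a weak relation, given as a description, between values that share cells and regions. The group with the most H3K27ac had a higher share than the group with the least for 16 of 17 factors.

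SSRP1 was already more frequent in the members with the least H3K27ac. It stood at 12.9% of poised regions without listed H3K27ac and at 24.6%, 29.9%, 33.6% and 34.0% of the member groups from low to high H3K27ac. PHRF1 stood at 19.8%, 27.9%, 32.6%, 35.3% and 35.5% over the same series. For both, the change between no listed H3K27ac and the lowest members was larger than any later one among the poised regions. MED1 and MED12, at 16.7% and 14.7% in the lowest group, were below their shares of 18.7% and 17.7% at regions without listed H3K27ac, and WSTF was as well, at 8.47%. The other 14 factors were above theirs.

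The limit at a fold of 2 was looked at from both sides. The 998 members within a log2 enrichment of 0.05 below the limit had 4.44 factors on average (SE 0.0819), and the 928 active regions within 0.05 above it had 4.71 (SE 0.0910). The next classes of the same size had 4.60 below (924 members) and 4.92 above (967 active regions). SSRP1 was at 34.1% of these members and 36.2% of these active regions, and WSTF at 7.82% and 8.08%.

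**Figure D3:**
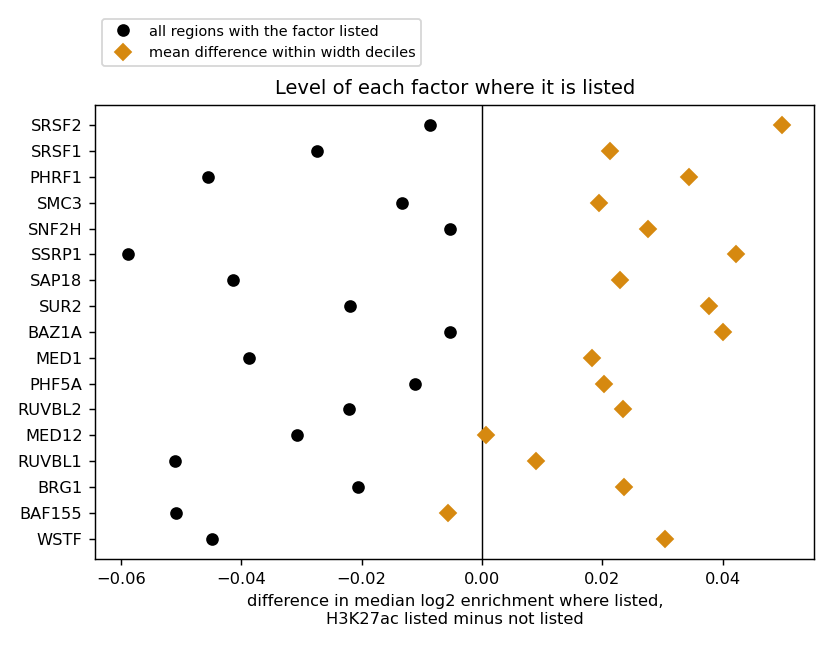
Difference in the median log2 enrichment of each factor where it was listed, poised regions with minus without listed H3K27ac, over all such regions (circles) and as the mean difference within width deciles (diamonds). All 17 circles lie left of 0, from -0.059 to -0.0052, and 16 diamonds lie right of it, up to 0.050.

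Where a factor was listed, its median level differed little between the sets. The median log2 enrichment was lower at members for 17 of 17 factors, but by 0.0052 to 0.059 only. SRSF2 had a median of 0.84 at members and 0.85 at the others, and SSRP1 of 0.94 and 1.001. Compared within classes of region width, the level was higher at members for 16 of 17 factors, by at most 0.050, and lower for BAF155, as the plot of levels shows. The direction of these small differences thus turned with the width of the regions. Values below a fold of 1.5 are not listed, so these medians do not show that levels are alike.

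Of the 7 members with 14 or more factors, 6 were narrower than the median member, and their widths ran from 209 to 681 bp. Of the 6 with 14 factors the 4 with the most H3K27ac are named here. The region chr11:113360758-113361024, only 267 bp wide, had 15 factors, all but BRG1 and MED12. Its WSTF log2 enrichment was 3.76, with BAZ1A at 1.81, SNF2H at 1.80 and SRSF2 at 1.52. All of the ISWI proteins measured were therefore enriched there, in contrast to the members at large, where WSTF was rare.

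The region chr17:45985800-45986008 had 14 factors, with SMC3 at a log2 enrichment of 2.94, SSRP1 at 2.38 and MED12 at 1.93. At chr1:167710397-167710675, with 14 factors, SMC3 was again the highest at 2.21, followed by SRSF2 at 1.87. At chr1:62767225-62767449, also with 14, SRSF2 led at 2.08 and RUVBL1 followed at 1.73. Another region, chr5:21309356-21310036, had 14 factors at lower levels, the highest of them SRSF2 at 1.46. The 4 regions on chromosomes 11, 17 and 1 were 267, 209, 279 and 225 bp wide, and WSTF was listed at just 1.

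At the other end, 657 members had a single factor. SRSF2 was that factor at 30.0% of them, SMC3 at 18.1% and SRSF1 at 10.2%. Of the 4031 other poised regions with a single factor, SRSF2 accounted for 24.8%, SMC3 for 17.7% and SRSF1 for 10.8%. WSTF was the single factor at 4.26% of such members, against 10.8% of such regions without listed H3K27ac. Factors not named in the lists, such as BAF155 with 1 member and RUVBL1 with 0, were rarely alone in either set. Each could be alone only at a region with none of the named factors, and 14 members and 46 other poised regions had none. The rarity of these factors as single factors thus follows from the make-up of the lists and is no property of the factors. A region with a single named factor would without it have none of the 12, as very few poised regions do. The shares of SRSF2, SMC3, SRSF1 and WSTF as single factors thus also depend on the lists and only describe them.

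Across all 136 pairs of factors, listing went together only weakly within the poised list. The phi coefficient, a correlation of presence, had a median of 0.080 at members and 0.087 at the other poised regions. It was highest for RUVBL2 with SAP18 in both sets, at 0.17 and 0.18. It was negative for 6 pairs at members, lowest for SSRP1 with WSTF at -0.026, and for 14 pairs at the others, lowest for SRSF2 with WSTF at -0.061. Nearly every poised region has some factor among the 12 named in the lists. That by itself lowers phi between named factors, and phi outside the lists was not computed. Regions also share libraries and width, so these values only describe the table and do not show how closely the factors go together.

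**Figure D4:**
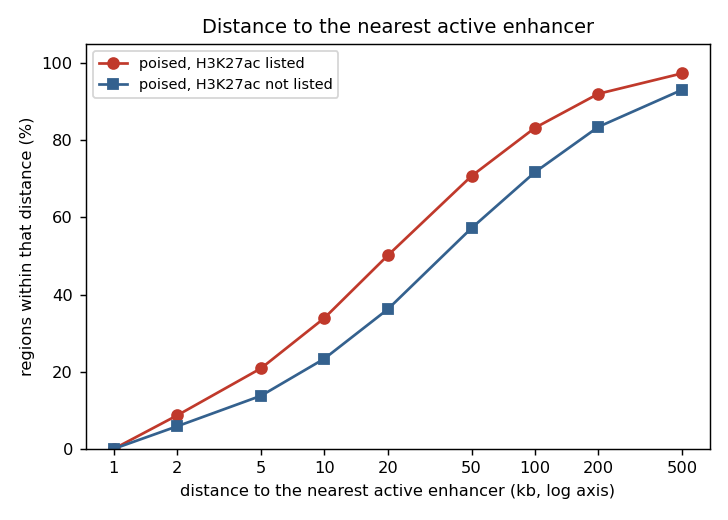
Share of poised regions (percent) whose nearest active enhancer lies within a given distance (kb, log axis), for 4722 regions with and 14845 without listed H3K27ac. The curve of the regions with listed H3K27ac is higher at every distance from 2 to 500 kb.

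Members lay closer to active enhancers. The same H3K27ac values set apart members, active enhancers and the other poised regions, so these distances are given as a description only. The median distance to the nearest active enhancer was 19.9 kb (18.6 to 21.1) for members and 36.8 kb (35.7 to 38.2) for the other poised regions. Within 5 kb of an active enhancer were 20.9% of members (19.7 to 22.1) and 13.8% of the others (13.2 to 14.3), and within 20 kb 50.1% and 36.2%. The median was shorter for members on 20 of 20 chromosomes, and the curves of distance run apart from 2 to 500 kb. With width standardised, the difference within 5 kb was 5.25 points rather than 7.13.

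Other neighbours were less different. The nearest other poised region lay at a median of 12.3 kb from members and 12.8 kb from the others, with intervals of 11.7 to 12.9 and 12.4 to 13.1. The nearest H3K4me3 region, a mark of promoters, lay at 12.3 kb (11.7 to 12.9) and 16.3 kb (15.8 to 16.7), so here the intervals stood apart. Members, which made up 24.1% of poised regions, also tended to neighbour each other. This too draws on the H3K27ac values that chose them and is only a description. The nearest poised region was a member for 32.7% of members and 21.6% of the others, and where that neighbour lay within 5 kb, for 35.8% (481 of 1345) and 21.0% (857 of 4080).

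The share of poised regions that were members varied between chromosomes. On the autosomes it ran from 18.02% on chromosome 13 to 29.6% on chromosome 4. On the X chromosome 3 of 44 poised regions were members. The X chromosome held 0.22% of all poised and 0.18% of active regions, while it held 5.38% of the regions with H3K4me3 only and 1.45% of the H3K4me1 peaks of R1 cells, so X-linked members are too few to describe.

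The R1 cells give H3K4 methylation at the same positions in other libraries, which the choice of members did not use. An H3K4me1 peak of R1 cells overlapped 68.5% of members and 59.1% of the other poised regions, a difference of 9.41 points. With width standardised the shares were 61.3% and 61.2%, so the difference went with the width of the regions. H3K4me2 peaks overlapped 36.2% of members and 30.1% of the others, and H3K4me3 peaks 13.2% and 11.1%. For these marks width standardisation turned the order, to 29.6% and 31.9% for H3K4me2 and 10.1% and 11.9% for H3K4me3.

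H3K4me1 at members was lower in catalytic-dead than in wild-type R1 cells. At the 3385 peaks on members the median fold enrichment was 2.07 (quartiles 1.37 and 2.99) in catalytic-dead cells and 3.16 (2.84 and 3.50) in wild-type cells. The log2 ratio between them, catalytic-dead over wild-type, had a median of -0.66 (-0.70 to -0.62). At the 8735 peaks on the other poised regions the medians were 2.00 and 3.06 and the log2 ratio -0.67 (-0.70 to -0.64). The intervals overlap, and 115 peaks that touched both sets were left out. These values had to be put back in step with their positions, and in the deposited layout the log2 ratios were -0.24 and -0.26. Without the 25% of peaks with the lowest mean of both lines, a filter on values that enter the ratio, they were -0.38 at members and -0.24 at the others, a difference of -0.14 (-0.18 to -0.10). On chromosomes 1 and X, whose values were in step as deposited, the log2 ratios without this filter were -0.86 at members and -0.83 at the others. The 4 member groups by H3K27ac had log2 ratios of -0.60, -0.66, -0.68 and -0.64 from low to high, with overlapping intervals.

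The authors' class of a peak is decreased where catalytic-dead over wild-type enrichment is at most 0.5 and increased where it is at least 2, which is a size rule without a test. At members 1169 H3K4me1 peaks (34.5%) were called decreased, where 28.4% of all 82053 peaks were, and 38.0% of peaks on the other poised regions. Called increased were 53 peaks (1.57%) at members, where 15.2% of all peaks were, and 3.93% on the other poised regions. Both sets of poised regions were chosen for H3K4me1 in ES cells without a catalytic-dead label, and all peaks were not. This choice can by itself give fewer increases and more decreases than over all peaks. The comparison with all peaks is therefore only a description. Distal peaks, away from promoters, made up 88.1% of the peaks at members and 89.0% of those at the others. Large changes in either direction were thus somewhat fewer at members than at the other poised regions. Whether the difference is larger than that between libraries could not be tested.

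H3K4me2 showed the same direction. Its median fold enrichment at members was 2.62 in catalytic-dead and 3.88 in wild-type cells, a log2 ratio of -0.59 (-0.65 to -0.55), and at the other poised regions 2.87 and 4.14, a log2 ratio of -0.56 (-0.60 to -0.52). In the deposited layout these were -0.15 and -0.21, and without the 25% lowest peaks -0.25 and -0.16, a difference of -0.088 (-0.13 to -0.047). Called decreased were 31.4% of the peaks at members, against 34.5% at the others and 23.0% of all H3K4me2 peaks. Called increased were 6 peaks at members (0.327%), against 1.03% at the others and 1.91% of all. H3K4me3, which was present at few members, hardly moved, with a log2 ratio of 0.03 (-0.03 to 0.06) at members and 0.02 (-0.01 to 0.06) at the others. Its calls were 6.07% decreased and 5.45% increased at members and 5.72% and 7.28% at the others, where 4.48% and 3.15% of all H3K4me3 peaks were called. For both marks the choice of regions can bear on these shares, so the comparisons with all peaks are only a description.

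Single members ranged widely. At chr17:25551431-25551984 the H3K4me1 fold enrichment of the overlapping peak was 0.912 in catalytic-dead and 4.84 in wild-type cells, a log2 ratio of -2.41. This member had 6 factors, among them SSRP1 at a log2 enrichment of 1.31 and SRSF1 at 1.28. At chr8:122151562-122152658, also with 6 factors, it was 0.745 in catalytic-dead and 4.93 in wild-type cells (-2.73), and at chr10:59439135-59442285 it was 1.24 and 5.11 (-2.04). These 3 falls, the largest where the mean enrichment exceeded the table median, were at distal peaks.

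The 3 largest rises were at members with few factors. At chr14:56259064-56260479, with 3 factors, the fold enrichment was 5.91 in catalytic-dead and 1.82 in wild-type cells, a log2 ratio of 1.70. At chr7:106626310-106628255, where SMC3 was the single factor, it was 7.63 and 2.65 (1.53), and at chr1:89655216-89655783, where SRSF2 was the single factor, 5.84 and 2.06 (1.4996). The peaks on chromosomes 14 and 1 were classed as proximal to a promoter and that on chromosome 7 as distal.

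**Figure D5:**
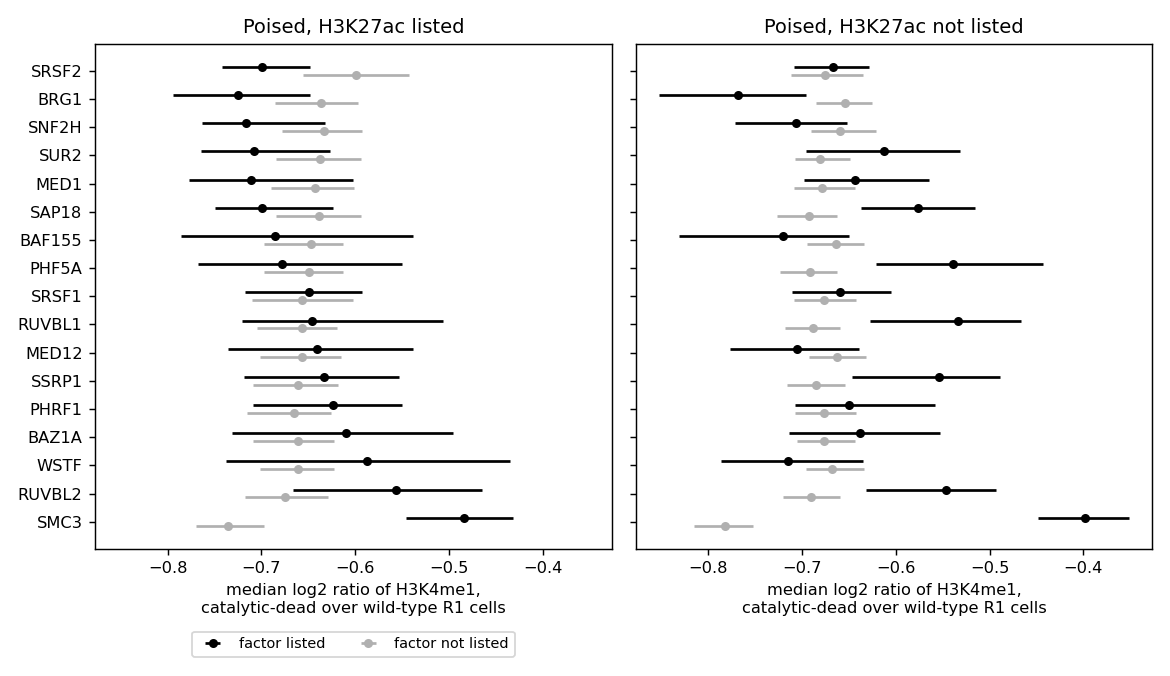
Median log2 ratio of H3K4me1, catalytic-dead over wild-type R1 cells, with 95% intervals over peaks, for peaks on poised regions where each of the 17 factors was listed (black) or not listed (grey), at regions with (left) and without (right) listed H3K27ac. At regions with listed H3K27ac the intervals stand apart for SMC3 alone, at -0.48 and -0.74.

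Members with and without each factor were then compared for the change in H3K4me1, 17 comparisons in all, shown in the plot of log2 ratios by factor. At members with SMC3 the median fold enrichment was 2.26 in catalytic-dead and 3.08 in wild-type cells, a log2 ratio of -0.48 (-0.55 to -0.43, 1097 peaks). At members without listed SMC3 it was 1.99 and 3.19, a log2 ratio of -0.74 (-0.77 to -0.70, 2288 peaks). The wild-type levels were close, and most of the difference of 0.25 (0.18 to 0.31) lay in the catalytic-dead cells. Called decreased were 29.5% of the peaks at members with SMC3 and 36.9% at members without it.

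For the other 16 factors the intervals of members with and without the factor overlapped, which does not show that the ratios were alike. The next largest contrasts were RUVBL2, with -0.56 where listed and -0.67 where not, and SRSF2, with -0.70 and -0.60. The SRSF2 intervals, -0.74 to -0.65 and -0.66 to -0.54, met only at their ends. The BAF ATPase BRG1 stood at -0.72 and -0.64. The contrast at members was thus largest for SMC3, and no interval of the difference was computed for the other 16 factors. SMC3 was singled out after the values were seen.

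The SMC3 contrast was also present at the other poised regions, at -0.40 where listed and -0.78 where not, a difference of 0.38 (0.32 to 0.44). Whether the contrast differs between the sets was not tested. There the intervals stood apart for 7 of 17 factors, over 8735 rather than 3385 peaks. At members the SMC3 difference was 0.22 among distal peaks, 0.25 with width standardised and 0.17 without the 25% of peaks with the lowest mean of both lines. The fold enrichments of the R1 tables had to be put back in step with their positions, and on chromosomes 1 and X, where this was not needed, the difference was 0.55 (0.18 to 0.77, 68 and 125 peaks). In the deposited layout it was 0.049 (-0.08 to 0.18).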

How the data were processed

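ChIP-seq tables of 129/Ola and R1 mouse ES cells were used. Per the submitters' processing notes the build was mm9, with Bowtie, Picard and MACS2 (no versions) for 129/Ola libraries and deepTools 2.5.1 and 2.5.3, MACS2 2.1.0.20150731, BWA 0.7.13-r1126 and Picard 2.11.0 for R1 libraries. Not given in the sources used here are their roles, the pooling of libraries and what an enrichment is relative to.

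The authors deposited region tables of 129/Ola cells with 1 log2 enrichment per factor and region, listed from a fold of 1.5, which was tested on the tables. H3K4me1 and H3K4me3 were used as presence. Of 31 names, 11 matched no 129/Ola library and were not used. The authors also deposited R1 peak tables whose values, headed FE, were read as a fold (ratio) enrichment per genotype. The peak tables' positions and values were out of step. On chromosome 1 wider peaks had more wild-type signal (Spearman's rho 0.674 in the H3K4me3 table, 0.661 in that of H3K4me2 and 0.215 in that of H3K4me1). Over chromosomes 2 to 19 these rho averaged -0.0038, 0.0055 and 0.0025 as deposited and 0.687, 0.675 and 0.253 with values in chromosome number order, the order used.

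Shares have Wilson and differences Newcombe 95% intervals. Medians have binomial order-statistic intervals. Width standardisation weights 10 width classes of all poised regions. Regions and peaks were matched at 1 bp of overlap with bedtools 2.31.1, using Python 3.11.15, pandas 2.3.3 and numpy 2.4.6. The steps were tested on simulated data. There was 1 value per factor, so no test between conditions was run.

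Members, lists and contrasts were chosen with earlier results of these data known. Regions were named by fixed rules: the 3 highest and 3 lowest in H3K27ac, the 3 active ones nearest the limit, the 5 with most factors (ties by higher H3K27ac), and the 3 largest falls and rises among peaks above the median mean. Planned lists of genes, motifs and sequences needed an mm9 genome or annotation and were not used here.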

Additional observations from a re-analysis of the deposited data

How the results depend on the processing

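Direction was kept in most alternatives, but sizes moved. The difference in factors per region, 0.96, was 1.25 with width standardised, 0.098 with factors counted at a log2 enrichment of 1 or more, 0.50 with both, 1.24 for members above the median H3K27ac, 1.39 over all H3K4me1 regions, 0.78 without SSRP1 and 0.93 on even-numbered autosomes. The median difference in share over factors, 5.26 points, was 7.55, 0.242, 2.75, 6.76 and 7.64 points under the first 5 of these. At a log2 enrichment of 1 or more the differences of MED1 (-0.83 points), RUVBL1 (-0.11) and SRSF1 (-0.061) turned round, as did that of MED12 (-0.81), whose interval crossed 0 before. The rho of H3K27ac with factors was 0.071 at that limit, against 0.12. The difference near active enhancers was 13.95 points within 20 kb and 5.25 with width standardised, against 7.13. Overlap with R1 peaks, 9.41, 6.14 and 2.12 points higher at members for H3K4me1, H3K4me2 and H3K4me3, was 0.126, -2.36 and -1.88 with width standardised and 7.78, 1.02 and -1.35 at 50% overlap. The difference in the H3K4me1 log2 ratio, 0.016, was -0.137 (-0.179 to -0.097) without the 25% lowest peaks and -0.036 with width standardised. That in H3K4me2, -0.028, was 0.058 as deposited and 0.084 on chromosomes 1 and X. The count of factors with a higher level at members was 0, and 16 within width classes. Of 149 alternative values, 55 stayed within the counting interval (for counts, within 1.5 times), 88 moved further and 6 changed sign where the interval had excluded 0. The causes were not tested.

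The settings over all H3K4me1 regions, without SSRP1, on chromosomes 1 and X, within width classes and with 2 choices together were added after seeing the data, as were those of the SMC3 contrast. No paired analysis was possible because the tables hold 1 value per factor or genotype, and for the same reason no library was left out. Depth is unknown, and signal below a fold of 1.5 is not in the tables.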
